A study of Mus musculus with 8 samples.

Results

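The genes of the Nrf2 and glutathione antioxidant system were followed in primary mouse keratinocytes, the main cell type of the epidermis. They are 40 genes given by symbol, covering the transcription factor Nrf2 and its inhibitor, enzymes of glutathione, thioredoxin and peroxide chemistry, and the enzymes that supply NADPH, and all 40 were among the 19457 genes of the table. RNA sequencing was done on 8 libraries of cultured cells taken before they reached confluence, 4 from HdR mice and 4 from wild-type (WT) mice. HdR mice carry HOIL1 ΔRING1, an altered form of HOIL-1L, the product of Rbck1 and part of LUBAC, the enzyme complex that builds linear ubiquitin chains. The labels give the tissue as skin and state neither strain, age, sex nor zygosity, nor whether replicate libraries are from different animals or cultures. The p-values therefore measure the spread between these libraries, which may be technical.

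Nrf2, encoded by Nfe2l2, binds antioxidant response elements with small Maf proteins and raises transcription of detoxifying and reducing enzymes. In unstressed cells it is held by Keap1, an adaptor of a Cul3 ubiquitin ligase, and is degraded, so its activity is set largely at the protein level. Its targets make and recycle glutathione, feed the thioredoxin and peroxiredoxin system and supply NADPH, and in epidermis the pathway is known for protection against ultraviolet light, electrophiles and reactive oxygen.

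The HdR libraries held 2.31 to 4.31 Gb of aligned bases and the WT libraries 4.78 to 5.43 Gb, so the deepest HdR library had fewer bases than the shallowest WT library, and depth and genotype cannot be told apart. Values below are levels in aligned bases per megabase of normalised library total (aligned bases per Mb), and differences are HdR minus WT on the log2(value + 1) scale with their standard error (SE) from limma. This scale understates the change of low genes. Rbck1 had 43.6, 41.1, 45.2 and 44.8 aligned bases per Mb in the HdR libraries, against 84.4, 89.3, 91.3 and 84.8 in the WT libraries, so the gene that carries the allele separated the genotypes. The basal keratinocyte keratin gene Krt5 averaged 18585 ± 304 aligned bases per Mb in HdR and 17282 ± 840.4 in WT, and Krt14 17021 ± 216 in HdR and 17469.7 ± 1426 in WT (SD, n = 4 each). Defining markers of the labelled cell type were therefore abundant in both genotypes.

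All 40 members reached the level for testing, a mean of at least 1 aligned base per Mb. With limma at adjusted p under 0.05, 12 members were higher in HdR (30%), 15 were lower (37.5%) and 13 were not called. Over all 11870 genes tested, 45.1% were called, 21.4% higher and 23.6% lower, so a call in itself does not set a gene of this system apart. Trimmed-mean (TMM) scaling gave 2545 higher and 2805 lower genes in all, while scaling to the upper quartile gave 3113 higher and 2278 lower, with 13 members higher and 14 lower. In bulk RNA, fewer cells of a type and less RNA per cell cannot be told apart. The median log2 difference was -0.08 over the members and -0.01 over all genes. The treat test of limma, which asks for more than a fold of 1.2, called 1 member higher and 4 lower. Beside this it called 7.47% of all genes, 2.92% higher and 4.55% lower. A member that it did not call can still differ by more than that fold. Gclc and Mgst3, for example, had ratios of means (HdR over WT) of 0.681 and 1.65 and were not called by it. HdR and WT values were fully separated in 25 members, 11 with every HdR library above all WT libraries and 14 with every one below, beside 41.2% of all genes, 20% above and 21.2% below. By role, the 3 genes of glutathione synthesis fell, peroxidase and peroxiredoxin genes moved in both directions, and so did the transferases.

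**Figure D1:**
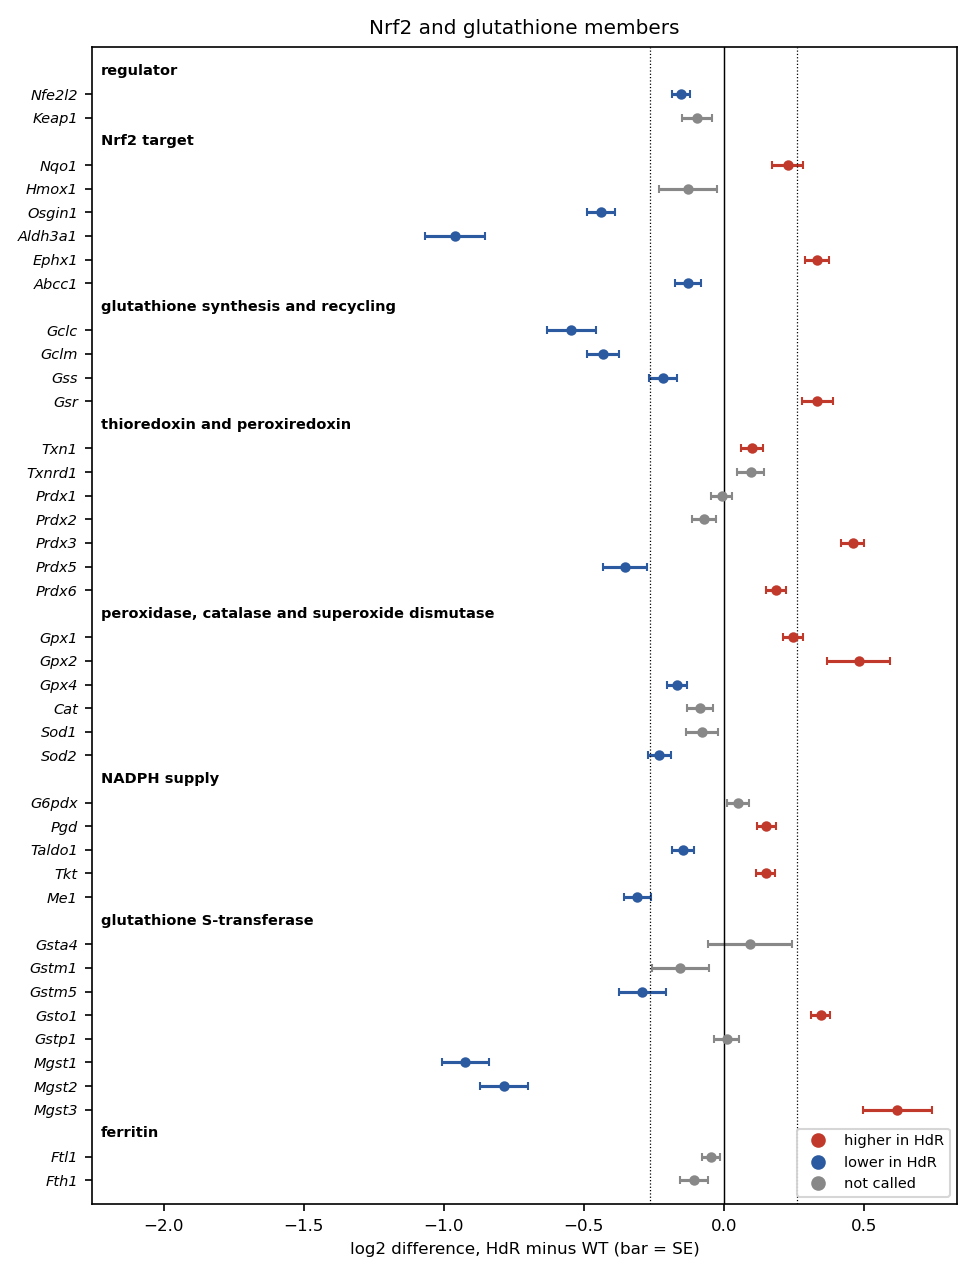
Log2 difference (HdR minus WT, x axis) of the 40 members by role, with the SE as a bar; red, blue and grey points are members called higher, called lower and not called, and dotted lines mark a fold of 1.2. Aldh3a1, Mgst1 and Mgst2 lie farthest to the left and Mgst3 farthest to the right.

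Promoter sequence was searched because the element that Nrf2 binds is known. The motifs TGACNNNGC and TGAGNNNGC, which differ at 1 base, were looked for on both strands in RefSeq windows (GRCm38.p6) from 250 bases before to 50 after a start site. When the N bases are TCA, each motif also contains a binding sequence of AP-1, TGACTCA or TGAGTCA. Windows were at hand for 33 members, and 13 of these (39.4%) held a match. By gene, that stands beside 35.8% of the 9344 tested genes with a window and 30.8% of all 27025 genes. A gene can have several windows. Counted by window, 13 of 43 (30.2%) held a match among the members, beside 31.3% for tested genes and 27.8% for all genes. A match was present in 1 of 10 members called higher, 7 of 12 called lower and 5 of 11 not called. By window these were 1 of 11, 7 of 17 and 5 of 15. A match is a description of the letters and not a bound site. Matches in 2 members that fell (Gclm and Osgin1) and 2 that were not called (Prdx1 and Txnrd1) are shown, with the motif in capitals as read on the plus strand, which is the strand of all 4 genes; each is the reverse complement of a motif. They start 134, 99, 133 and 92 bases before the start site of their window. The Osgin1 and Txnrd1 windows begin at 119436897 and 82858956, inside genes that in GENCODE begin at 119434124 and 82833951.
Gclm, chr3:122245393-122245461: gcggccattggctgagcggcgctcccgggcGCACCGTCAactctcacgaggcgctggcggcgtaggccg
Osgin1, chr8:119437018-119437086: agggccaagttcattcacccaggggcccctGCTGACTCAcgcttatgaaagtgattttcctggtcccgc
Prdx1, chr4:116685436-116685504: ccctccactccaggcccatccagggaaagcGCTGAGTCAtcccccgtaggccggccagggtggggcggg
Txnrd1, chr10:82859084-82859152: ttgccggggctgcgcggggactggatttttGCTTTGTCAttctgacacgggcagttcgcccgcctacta
The Osgin1 and Prdx1 matches contain the AP-1 sequence and the Gclm and Txnrd1 matches do not, so each kind was present in a member that fell and in one that was not called.

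Nfe2l2 itself was slightly lower in HdR (GRCm38 chromosome 2, 75675513 to 75704641, minus strand). It had 212, 209, 208 and 215 aligned bases per Mb in HdR libraries 1 to 4, against 233, 240.0, 233 and 231 in WT libraries 1 to 4. The groups were tight and did not overlap, and the log2 difference was -0.15 ± 0.033 (SE, limma adjusted p = 0.00106). Keap1 was not called, at -0.10 ± 0.053 (SE, limma adjusted p = 0.156), with 48 ± 1.99 aligned bases per Mb in HdR and 51.4 ± 3.42 in WT (SD, n = 4 each).

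The 6 members grouped here as Nrf2 targets did not move together: 2 were higher, 3 lower and 1 not called. Members counted under other roles, such as glutathione synthesis, include Nrf2 targets too. Of 15 further Nrf2 targets outside the members, 11 were lower and 1 was higher, beside 23.6% and 21.4% of all genes. Aldh3a1, an aldehyde dehydrogenase that clears products of lipid peroxidation (chromosome 11, 61207537 to 61218421), fell the most of the 6 members. Its levels were 3.1, 4.2, 4.19 and 3.22 aligned bases per Mb in HdR, against 7.9, 8.87, 8.29 and 7.2 in WT, a log2 difference of -0.96 ± 0.11 (SE, limma adjusted p = 2.14e-06). The highest HdR library lay far below the lowest WT library, and with a pseudocount of 5 the difference was -0.59. Osgin1, named for its induction by oxidative stress (chromosome 8, 119434124 to 119446256), fell to 38.4, 36.9, 39.8 and 36.1 aligned bases per Mb in HdR, against 50.2, 53.7, 51.4 and 50.8 in WT. Its difference was -0.44 ± 0.049 (SE, limma adjusted p = 2.03e-06), and it and Aldh3a1 were among the 4 members called lower by the treat test against a fold of 1.2.

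Both called genes that rose among these 6 members encode detoxifying enzymes. Nqo1, a quinone reductase often used as a readout of Nrf2 (chromosome 8, 107388225 to 107403206), had 40.1, 41.6, 42.5 and 38.6 aligned bases per Mb in HdR, against 34.6, 37.3, 33.9 and 32.6 in WT. The groups came close without overlapping, and the difference was 0.23 ± 0.055 (SE, limma adjusted p = 0.00266). Ephx1, the microsomal epoxide hydrolase, had 119, 125, 125 and 117 in HdR, against 95.7, 91, 95.6 and 103 in WT, a difference of 0.33 ± 0.043 (SE, limma adjusted p = 1.03e-05). Hmox1, the inducible haem oxygenase, varied more than the genotypes differed. It had 135, 148, 120.0 and 136 aligned bases per Mb in HdR and 144, 143, 176 and 128 in WT, with WT 3 the highest and WT 4 the lowest WT library, and was not called (-0.13 ± 0.10, SE, limma adjusted p = 0.358). Abcc1, which exports glutathione conjugates, was lower by a small amount (-0.13 ± 0.046, SE, limma adjusted p = 0.0315), with overlapping groups. The Abcc1 call was lost without HdR 1, HdR 2, HdR 4, WT 1 or WT 2 (limma adjusted p 0.0681 to 0.0964), when scaled to the upper quartile (0.116) or to library totals alone (0.118), with no filter on low genes (0.0848) and with the replicate number as a block (0.0724). It was lost as well without HdR 4 and WT 4 together (0.108).

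Genes of both steps of glutathione synthesis fell, while the gene of the recycling enzyme rose. Gclc, the catalytic subunit of glutamate-cysteine ligase, the rate-limiting enzyme (chromosome 9, 77754535 to 77794485), had 88.5, 80.1, 92.6 and 91.5 aligned bases per Mb in HdR, against 129, 152, 112 and 125 in WT. The WT libraries were spread widely, with WT 2 the highest and WT 3 the lowest, and all lay above HdR. The difference was -0.54 ± 0.086 (SE, limma adjusted p = 0.000693). Gclm, the modifier subunit of the same enzyme (chromosome 3, 122245557 to 122270732), had 35.5, 35.4, 38.8 and 34.6 in HdR, against 50.3, 53.1, 44.9 and 47.9 in WT, a difference of -0.43 ± 0.058 (SE, limma adjusted p = 1.4e-05). WT 2 was again the highest and WT 3 the lowest of the WT libraries. Against a fold of 1.2, neither subunit was called (treat adjusted p = 0.0601 for Gclc and 0.0599 for Gclm).

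Gss, glutathione synthetase, which adds glycine, had 55 ± 1.9 aligned bases per Mb in HdR and 64.2 ± 4.07 in WT (SD, n = 4 each), a difference of -0.22 ± 0.050 (SE, limma adjusted p = 0.00192). Gsr, glutathione reductase, which returns oxidised glutathione to its reduced form with NADPH (chromosome 8, 33652523 to 33698163), had 54.2, 54.3, 47.8 and 54.9 aligned bases per Mb in HdR, against 43.4, 42.4, 41.9 and 38.8 in WT. HdR 3 was lower than the other HdR libraries and still above every WT library, and the difference was 0.33 ± 0.055 (SE, limma adjusted p = 0.000104).

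**Figure D2:**
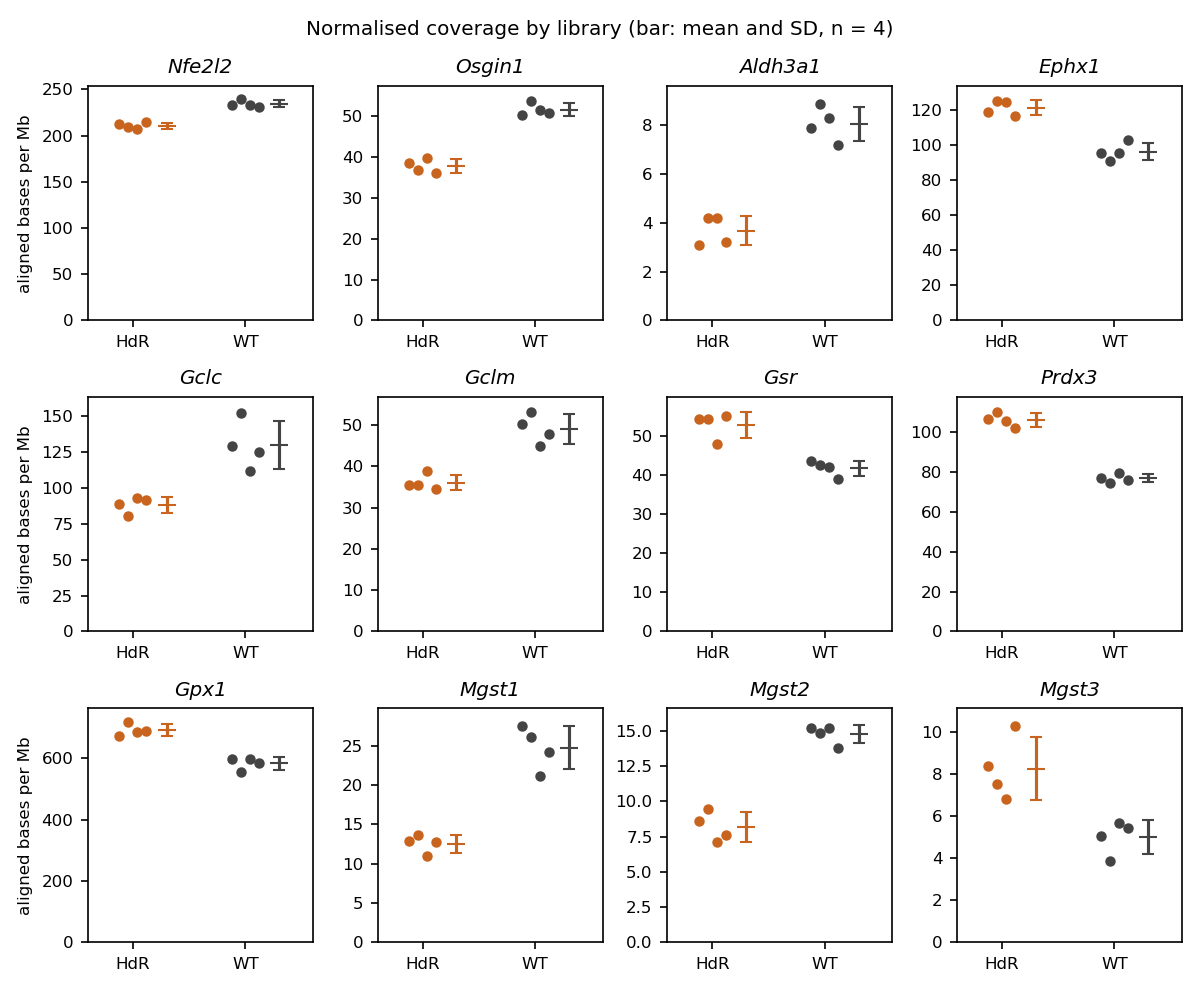
Normalised coverage in aligned bases per Mb (y axis, from 0) of 12 members in each HdR and WT library, with points for libraries 1 to 4 from left to right in a group and a bar for the mean and SD (n = 4 each). All 12 panels show members whose HdR and WT points do not overlap, whereas the values of 15 of the 40 members overlap. Over all genes tested, the groups did not overlap in 41.2%.

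Among the thioredoxin and peroxiredoxin genes, 3 of 7 rose, 1 fell and 3 were not called. The clearest change was in Prdx3, the peroxiredoxin of mitochondria (chromosome 19, 60864051 to 60874556), which had 107, 110.4, 106 and 102 aligned bases per Mb in HdR, against 77.3, 74.6, 79.6 and 76.2 in WT. It was the 1 member called higher by more than a fold of 1.2, with a difference of 0.46 ± 0.040 (SE, limma adjusted p = 1.25e-07, treat adjusted p = 0.00187). Prdx5, a peroxiredoxin found in mitochondria, peroxisomes and cytosol, fell to 153, 167, 144 and 170.1 in HdR, against 210.4, 194, 228 and 179 in WT (-0.35 ± 0.079, SE, limma adjusted p = 0.00523). Its WT libraries ranged widely, and WT 4 came nearest to HdR. Prdx3 and Prdx5 thus moved in opposite directions.

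Prdx6, which reduces phospholipid hydroperoxides, was higher, with 291 ± 9.43 aligned bases per Mb in HdR and 256 ± 9.11 in WT (SD, n = 4 each) (0.19 ± 0.037, SE, limma adjusted p = 0.000581). The abundant cytosolic genes Prdx1 and Prdx2 were not called, at -0.01 ± 0.038 and -0.07 ± 0.044 (SE, limma adjusted p = 0.88 and 0.201). The sign of Prdx1 turned with upper-quartile scaling. Txn1, thioredoxin, was higher by a small amount (0.10 ± 0.038, SE, limma adjusted p = 0.0413), and its groups overlapped, with 668 ± 15.1 aligned bases per Mb in HdR and 624 ± 32.6 in WT (SD, n = 4 each). The Txn1 call was lost without HdR 1, HdR 2, HdR 4, WT 2 or WT 4 (limma adjusted p 0.0709 to 0.125), without HdR 4 and WT 4 together (0.135), with the replicate block (0.0923), with no filter (0.0769) and after every library was thinned to the depth of the smallest (0.0604). Without WT 2 its difference was 0.07. Txnrd1, the selenium-containing reductase of thioredoxin, was not called (0.10 ± 0.048, SE, limma adjusted p = 0.114), but was called higher with upper-quartile scaling (0.0274), with limma-voom (0.0492) and without WT 2 (0.0191).

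The 3 glutathione peroxidases split. Gpx1, the main cytosolic peroxidase (chromosome 9, 108338903 to 108340343), had 673, 719.5, 686 and 691 aligned bases per Mb in HdR, against 598, 554, 599 and 583 in WT. The difference of 0.25 ± 0.035 (SE, limma adjusted p = 2.89e-05) is modest, but the lowest HdR library stood well above the highest WT library. Gpx2, the peroxidase typical of gut and other epithelia, had 25, 31.2, 26.1 and 19.9 in HdR, against 17.1, 18.8, 19.3 and 16.2 in WT (0.48 ± 0.11, SE, limma adjusted p = 0.00395), and HdR 4 lay close to the WT range. Gpx4, which reduces lipid hydroperoxides in membranes and restrains ferroptosis, was lower, with 121, 121, 117 and 122 in HdR, against 135, 132, 139.9 and 134 in WT (-0.17 ± 0.036, SE, limma adjusted p = 0.00124). Gpx2, Gpx4, Prdx6 and Ftl1 have named pseudogenes in GENCODE, and how the authors placed reads that match both is not given in the sources used here.

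Sod2, the manganese superoxide dismutase of mitochondria and a known NF-κB target, fell in HdR. Its levels were 98, 100.1, 96.2 and 98.3 aligned bases per Mb in HdR, against 123, 117, 111 and 111 in WT, a difference of -0.23 ± 0.041 (SE, limma adjusted p = 0.000229). Sod1, the cytosolic enzyme, and Cat, the catalase of peroxisomes, were not called, at -0.08 ± 0.057 and -0.09 ± 0.046 (SE, limma adjusted p = 0.296 and 0.144).

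NADPH-supplying genes moved by small amounts. G6pdx, the first enzyme of the pentose phosphate pathway, was not called (0.05 ± 0.039, SE, limma adjusted p = 0.317). Pgd, the next NADPH-producing enzyme of that pathway, had 339 ± 4.13 aligned bases per Mb in HdR and 305 ± 7.65 in WT (SD, n = 4 each) and was higher by 0.15 ± 0.033 (SE, limma adjusted p = 0.0011). In the branch that rearranges sugars without making NADPH, Tkt was higher (0.15 ± 0.034, SE, limma adjusted p = 0.00162) and Taldo1 lower (-0.15 ± 0.040, SE, limma adjusted p = 0.00662). Me1, the cytosolic malic enzyme (chromosome 9, 86581371 to 86695953), changed the most of these 5, with 73.7, 76.5, 69.8 and 71.1 aligned bases per Mb in HdR, against 96.1, 89.4, 92.7 and 83.7 in WT. Every HdR library was below every WT library (-0.31 ± 0.048, SE, limma adjusted p = 5.74e-05).

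After Aldh3a1, the members with the largest differences were the microsomal glutathione transferases, a family of membrane enzymes that conjugate glutathione or reduce lipid peroxides. Mgst1 (chromosome 6, 138140316 to 138156755) fell to 12.8, 13.7, 11 and 12.7 aligned bases per Mb in HdR, against 27.6, 26.1, 21.2 and 24.2 in WT, a ratio of means of 0.507 (-0.92 ± 0.084, SE, limma adjusted p = 2.14e-07). Mgst2 (chromosome 3, 51660360 to 51682677) had 8.58, 9.45, 7.12 and 7.61 in HdR, against 15.2, 14.9, 15.2 and 13.8 in WT (-0.79 ± 0.087, SE, limma adjusted p = 1.84e-06). Both fell by more than a fold of 1.2. Mgst3 (chromosome 1, 167371966 to 167393841) went the other way, with 8.4, 7.55, 6.82 and 10.3 in HdR, against 5.05, 3.9, 5.67 and 5.45 in WT (0.62 ± 0.12, SE, limma adjusted p = 0.000593). It was the largest rise among the members, with HdR 4 the highest, though not past a fold of 1.2 by test (treat adjusted p = 0.0623), and was 0.40 with a pseudocount of 5.

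Of the soluble transferases, Gsto1, the omega-class enzyme (chromosome 19, 47854970 to 47864790), was higher, with 692, 717, 678 and 708 aligned bases per Mb in HdR, against 556, 521, 571 and 553 in WT. The gap between the groups was several times their spread (0.35 ± 0.035, SE, limma adjusted p = 7.59e-07). Gstm5 was lower, with 9.54 ± 0.954 aligned bases per Mb in HdR and 11.9 ± 0.736 in WT (SD, n = 4 each) (-0.29 ± 0.085, SE, limma adjusted p = 0.00991), a call lost after thinning (limma adjusted p = 0.127). Gstm1, Gstp1 and Gsta4 were not called, at -0.16 ± 0.10, 0.01 ± 0.043 and 0.09 ± 0.15 (SE, limma adjusted p = 0.227, 0.871 and 0.654). Gsta4, which conjugates hydroxynonenal, a product of lipid peroxidation, had the largest SE among the members, with 326, 357, 277 and 306 aligned bases per Mb in HdR and 327, 277, 357 and 234 in WT. Mu-class and pi-class genes have close copies, among which reads could be shared. The ferritin genes Ftl1 and Fth1, whose protein stores iron, were not called (-0.04 ± 0.032 and -0.11 ± 0.049, SE, limma adjusted p = 0.268 and 0.0921).

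Levels were compared between genes per kilobase of the principal GENCODE vM21 transcript, which may not be the model the authors used. Fth1 was the most abundant member, at 1601 aligned bases per Mb per kb in HdR and 1723 in WT, followed by Ftl1 at 1110 in HdR and 1145 in WT. Prdx1, Gpx1, Txn1 and Gsto1 came next, between 591 and 765 in HdR and between 465 and 769 in WT. The 4 members called lower by the treat test against a fold of 1.2 were all low. Osgin1, Mgst2, Mgst1 and Aldh3a1 were at 18.9, 13.6, 12.2 and 2.14 in HdR and 25.7, 24.5, 24.1 and 4.69 in WT. As a share of all aligned bases, the 40 members together made up 0.948% to 0.996% in HdR libraries and 0.92% to 0.963% in WT libraries. These ranges overlapped, and the sum is carried mostly by the ferritins and other abundant members.

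**Figure D3:**
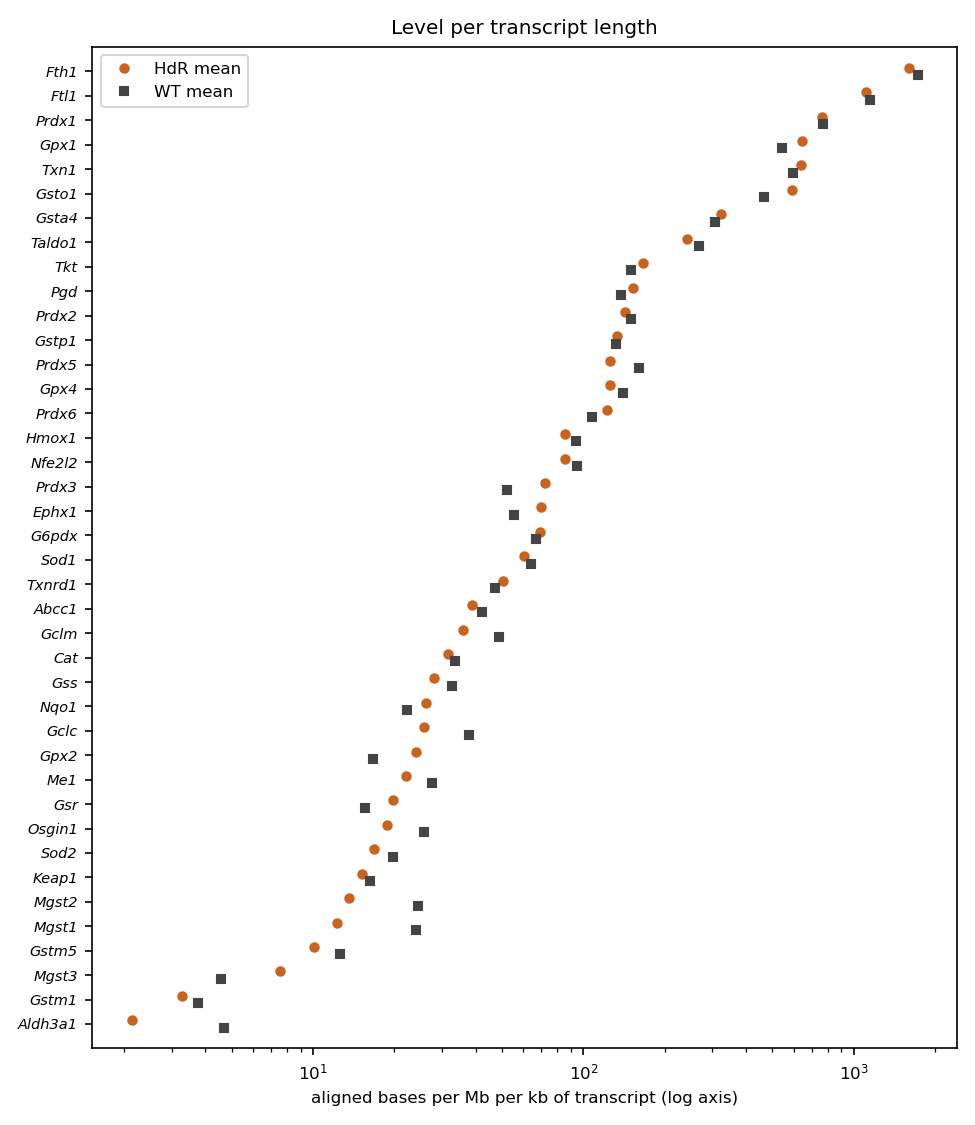
Mean level of each member per kilobase of transcript (x axis, log scale, aligned bases per Mb per kb), HdR as circles and WT as squares, sorted by the HdR level. In HdR the span runs from Fth1 at 1601 to Aldh3a1 at 2.14, and in WT from Fth1 at 1723 to Gstm1 at 3.75.

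A further 80 genes of the same pathways, listed by role with earlier results of these data known, showed a fall more often than a rise. Of the 68 that reached the level for testing, 9 were higher (13.2%), 32 lower (47.1%) and 27 not called, beside 21.4% and 23.6% of all genes, with a median log2 difference of -0.14. Past a fold of 1.2 by the treat test, 2 rose and 12 fell. Of the glutathione supply and breakdown genes, 6 of 8 were lower and none was higher. Of the further Nrf2 targets, 11 of 15 were lower and 1 was higher. Counts by role were 1 higher and 5 lower of 10 Nrf2 partners and regulators, 2 and 2 of 9 thioredoxin and glutaredoxin genes, and 1 and 1 of 5 peroxidase, superoxide dismutase and methionine sulfoxide reductase genes. They were 2 higher and 3 lower of 8 NADPH genes, none higher and 4 lower of 7 transferases, and 2 higher and none lower of 6 selenoprotein synthesis genes.

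**Figure D4:**
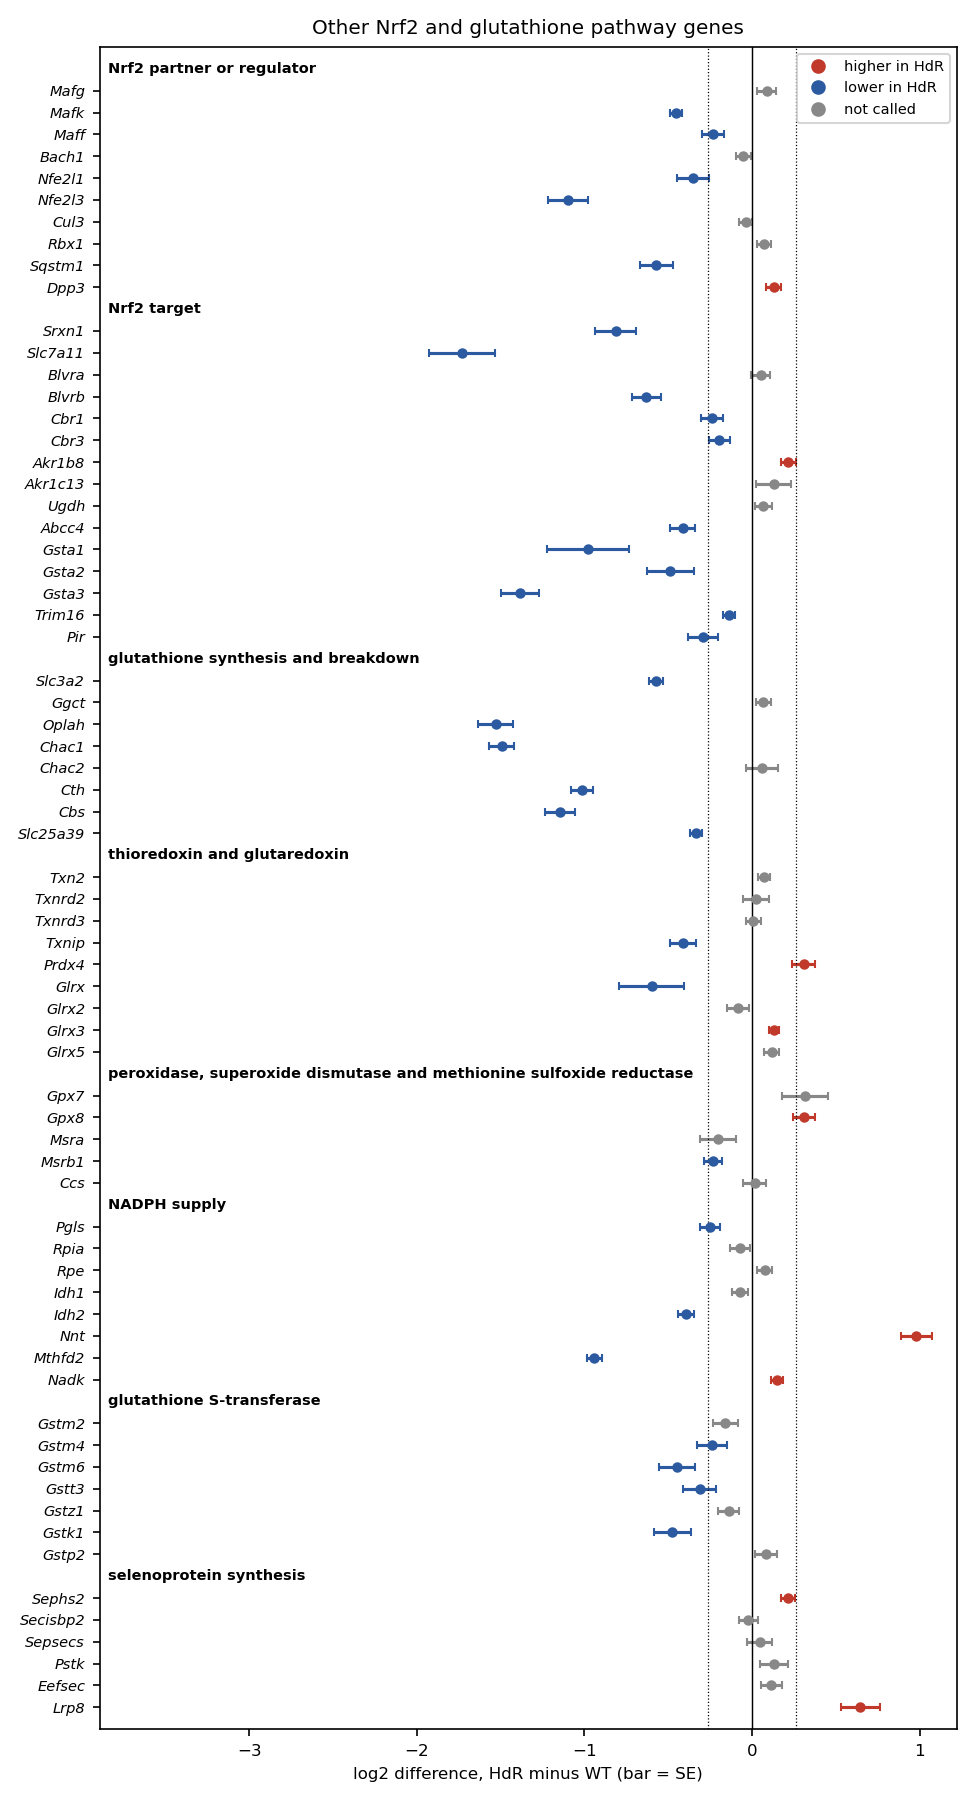
Log2 difference (HdR minus WT, x axis) of the 68 tested pathway genes outside the 40 members, by role, with the SE as a bar; red, blue and grey points are genes called higher, called lower and not called, and dotted lines mark a fold of 1.2. Slc7a11 lies farthest to the left at -1.73 and Nnt farthest to the right at 0.98.

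Cysteine is the limiting building block of glutathione, and the genes that bring it in were lower. Slc7a11, the cystine transporter (named after its values were seen), had 50.1, 49.2, 43.1 and 50.2 aligned bases per Mb in HdR, against 175, 229, 126 and 136 in WT (-1.73 ± 0.20, SE, limma adjusted p = 0.00054). The WT libraries were spread widely, with WT 2 highest and WT 3 lowest, as for Gclc, and all HdR libraries were far below them. Slc3a2, its partner chain, had 274 ± 6.11 aligned bases per Mb in HdR and 408 ± 24.2 in WT (SD, n = 4 each) (-0.57 ± 0.041, SE, limma adjusted p = 1.24e-08). The transsulfuration genes Cth and Cbs, which make cysteine from homocysteine, fell by about as much as each other, at -1.01 ± 0.065 and -1.14 ± 0.091 (SE, limma adjusted p = 4.77e-08 and 7.17e-08; Cbs named after its values were seen). Chac1, which degrades glutathione, had 9.54 ± 0.597 aligned bases per Mb in HdR and 28.7 ± 2.3 in WT (SD, n = 4 each), and Oplah, which returns oxoproline to glutamate and was named after its values were seen, had 22 ± 2.78 aligned bases per Mb in HdR and 65.4 ± 8.31 in WT (SD, n = 4 each). Their differences were -1.49 ± 0.074 and -1.53 ± 0.10 (SE, limma adjusted p = 1.29e-10 and 1.41e-06). Slc7a11, Slc3a2, Cth, Chac1 and the folate enzyme gene Mthfd2 (-0.94 ± 0.045, SE, limma adjusted p = 1.04e-10) are also known as targets of ATF4, the factor of the integrated stress response.

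Among partners and regulators of Nrf2, Mafk, a small Maf protein, had 95.1 ± 1.7 aligned bases per Mb in HdR and 131 ± 3.84 in WT (SD, n = 4 each) (-0.45 ± 0.037, SE, limma adjusted p = 6.49e-08). Nfe2l3, a relative of Nrf2, had 7.86 ± 1.35 aligned bases per Mb in HdR and 17.9 ± 2.65 in WT (SD, n = 4 each) (-1.10 ± 0.12, SE, limma adjusted p = 3.77e-06). Sqstm1, the p62 protein that can draw Keap1 into autophagy, had 203, 246, 202 and 241 in HdR, against 323, 387, 313 and 307 in WT (-0.57 ± 0.099, SE, limma adjusted p = 0.00252). Nfe2l1, another relative (named after its values were seen), had 316, 321, 300.0 and 414 in HdR, against 428, 437, 437 and 409.9 in WT, where HdR 4 alone reached the WT range (-0.35 ± 0.097, SE, limma adjusted p = 0.0211); its call was lost without WT 2 (0.0739) or WT 3 (0.0706).

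Of further Nrf2 targets, Gsta3, an alpha-class transferase, fell to 4.64, 4.9, 4.13 and 4.12 aligned bases per Mb in HdR, against 13.9, 15.5, 13.9 and 10.02 in WT (-1.38 ± 0.11, SE, limma adjusted p = 5.74e-08). Gsta1 (named after its values were seen) had 9.83, 9.53, 8.03 and 9.17 in HdR, against 23.2, 22.3, 22.7 and 10.8 in WT, so that WT 4 lay near the HdR libraries (-0.98 ± 0.25, SE, limma adjusted p = 0.0162). Without WT 4 its difference was -1.23. With WT 4 it was not called by the treat test against a fold of 1.2 (treat adjusted p = 0.132). Srxn1, sulfiredoxin, which repairs overoxidised peroxiredoxins and was named after its values were seen, had 50.7 ± 4.38 aligned bases per Mb in HdR and 90.5 ± 14.8 in WT (SD, n = 4 each) (-0.81 ± 0.12, SE, limma adjusted p = 0.00115). Blvrb, a biliverdin reductase, and Abcc4, an exporter, were at -0.63 ± 0.088 and -0.41 ± 0.075 (SE, limma adjusted p = 2.02e-05 and 0.000254).

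The pathway genes outside the members that rose were fewer. Nnt, the mitochondrial enzyme that makes NADPH from NADH, had 16.5, 16.3, 18.2 and 19.7 aligned bases per Mb in HdR, against 7.6, 7.53, 8.86 and 9.96 in WT (0.98 ± 0.092, SE, limma adjusted p = 2.88e-07). The ratio of means, HdR over WT, was 2.08. Nnt is known to carry a deletion in C57BL/6J mice, and since the labels do not give the strain of either genotype, whether strain moves with this value was not tested. Idh2, another mitochondrial source of NADPH, fell (-0.40 ± 0.048, SE, limma adjusted p = 4.48e-06). Lrp8, a receptor for the selenium carrier selenoprotein P, had 26.3, 24.6, 34.7 and 28.8 in HdR, against 16.5, 17.1, 16.1 and 22 in WT (0.64 ± 0.12, SE, limma adjusted p = 0.000914), and Sephs2, which makes selenophosphate, was at 0.21 ± 0.043 (SE, limma adjusted p = 0.000652). Eefsec, the elongation factor for selenocysteine, was not called (0.12 ± 0.064, SE, limma adjusted p = 0.157).

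Prdx4 and Gpx8, peroxide-reducing enzymes of the endoplasmic reticulum, were higher, at 0.31 ± 0.069 and 0.31 ± 0.064 (SE, limma adjusted p = 0.00161 and 0.000857). Glrx3, a glutaredoxin of iron-sulfur metabolism, was higher by 0.13 ± 0.032 (SE, limma adjusted p = 0.00285), and Txnip, which binds and inhibits thioredoxin, was lower at -0.41 ± 0.078 (SE, limma adjusted p = 0.000825). Msrb1, a selenium-containing methionine sulfoxide reductase, was lower at -0.23 ± 0.056 (SE, limma adjusted p = 0.00263), and Gpx7 was near the floor and not called (0.32 ± 0.14, SE, limma adjusted p = 0.0707), but was called higher with limma-voom (0.70, limma adjusted p = 0.023) and without HdR 2 (0.40, limma adjusted p = 0.0332). The transferases Gstk1, Gstm6 and Gstt3 were lower, at -0.48 ± 0.11, -0.45 ± 0.11 and -0.31 ± 0.10 (SE, limma adjusted p = 0.00228, 0.00284 and 0.0173), and the Gstt3 call was lost without HdR 4 (0.0547), without HdR 4 and WT 4 together (0.0903) and after thinning (0.23). With a pseudocount of 5 the Gstm6 difference was -0.21 and that of Gpx7 0.11.

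The WT libraries differed in how near they lay to HdR. For 13 of the 27 called members WT 3 was the WT library nearest to the HdR mean, for 9 it was WT 4, for 3 WT 2 and for 2 WT 1. Leaving out WT 3 gave 12 members higher and 15 lower, and leaving out WT 4 gave 11 and 15, so these counts moved by at most 1 without either library. On the first principal component of all tested genes, which held 67.1% of the variance, WT 4 lay at 11.3, the other WT libraries at 17.8 to 20.3 and the HdR libraries at -19.3 to -15.5.

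Some markers of other cell types and of differentiation also differed between the genotypes. Of 10 melanocyte markers, 7 reached the level for testing, 6 of them were lower and none higher, and their summed level was 27.7 to 29.7 aligned bases per Mb in HdR libraries and 53 to 61.1 in WT libraries. Krt10, a keratin of suprabasal, differentiating keratinocytes, averaged 49.5 ± 3.69 in HdR and 208 ± 9.72 in WT (SD, n = 4 each). Their part in the lower members was not tested. Of the 8 keratinocyte markers, Krt10 was the 1 called lower, 4 were higher (Krt5, Itga6, Itgb4 and Col17a1) and 3 were not called. Over all genes tested, 21.4% were higher and 23.6% lower. Of 6 fibroblast and 7 immune markers, 1 each was testable and each of these was lower, and the immune markers Lyz2, Adgre1 and Cd207 were at 0 in every library. None of 4 endothelial markers was testable, and 3 of 6 sebocyte markers were, all lipid genes that were higher and that other cells use too. Without strand information, reads from exons that overlap on opposite strands cannot be assigned, which touches 9 members: Gss with Acss2, Prdx2 with Rnaseh2a and Junb, Prdx5 with Trmt112, G6pdx with Ikbkg, Gstm5 with 4933431E20Rik, Me1 with A330041J22Rik, Gclm with Gm17494, Keap1 with Gm16754 and Ftl1 with Gm10252.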

How the data were processed

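The deposited table lists gene symbols by library, and its coverage values were made by the authors by adding up the aligned bases of each gene, as whole numbers without scaling to depth or length. Neither header nor label names this unit, so it was inferred from the numbers. The most frequent value above 0 was 302, the size of a pair of reads of 151 bases, yet among values above 0 and below 10 times that size 16.9% were exact multiples, so the values are not counts. Aligned bases are not independent molecules, so intervals from counting are not given. RNA came straight from the plates with the RNeasy mini kit, per the labels' protocols, and the NEBNext Ultra II RNA kit was used for the libraries. The submitters' processing notes name the build GRCm38. The aligner, counter, annotation and strand setting are not given in the sources used here.

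Each library was scaled with trimmed-mean (TMM) factors, trimming 30% of log ratios and 5% of levels at each end. Genes with a mean of at least 1 aligned base per Mb (11870 of 19457) were fitted on log2(value + 1) with limma 3.58.1 in R 4.3.3 (mean trend, robust variance), with genotype as the only factor, two-sided, and Benjamini-Hochberg adjustment over all tested genes. A call is adjusted p under 0.05. The fit was tested on simulated data. Samples were grouped by title. Alternatives were other scalings, filters and pseudocounts, limma-voom, a replicate block, a fold of 1.2, thinning to the smallest library, and each library left out. Leaving out HdR 4 and WT 4 together was added after seeing the data. Positions are from GENCODE vM21, which held all 40 members. Figures used Python 3.11.15 and matplotlib 3.10.9. The members and lists were chosen with earlier results of these data known. The text names every member, Rbck1, up to 3 further pathway genes of each role with the smallest p, and genes marked as named after their values were seen.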

Additional observations from a re-analysis of the deposited data

Results flagged for a closer look

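In 142 groups of 4 libraries tested for a library far from the others by Dixon's test at its 95% limit, 5 stood out, and chance flags about 1 group in 20. Among the members, Gsr was at 47.8 aligned bases per Mb in HdR 3, below the 54.2 to 54.9 of the other HdR libraries. Among the further pathway genes, Slc7a11 was at 43.1 in HdR 3, against 49.2 to 50.2 in the other HdR libraries. Oplah was at 17.9 in HdR 4, against 23 to 23.9 in the other HdR libraries. Lrp8 was at 22 in WT 4, above the 16.1 to 17.1 of the other WT libraries, and Gsta1 was at 10.8 in WT 4, below the 22.3 to 23.2 of the others. The causes were not tested.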

How the results depend on the processing

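Outside the test against a fold of 1.2, the counts of members stayed between 11 and 13 higher and between 14 and 15 lower over 19 alternatives. With a library left out they were 11 to 12 higher and 14 to 15 lower, and for the further pathway genes 8 to 11 higher and 30 to 31 lower. Over all genes they were 2165 to 2483 higher and 2395 to 2805 lower with a library left out. Over the other alternatives the further pathway genes had 9 to 12 higher and 26 to 33 lower. The lowest count came from thinning, with 9 higher and 26 lower of 67, beside 2170 higher and 2265 lower over all genes. Of the 27 called members, 24 kept their call and direction under all 19, the exceptions being Abcc1, Txn1 and Gstm5. Against a fold of 1.2, 347 genes were higher and 540 lower, with 1 and 4 members and 2 and 12 further pathway genes. Upper-quartile scaling gave 3113 genes higher and 2278 lower, against 2545 higher and 2805 lower with TMM scaling, and library totals gave 2880 and 2453. These scalings change the balance of small differences. Of the members not called, Prdx1 turned positive with upper-quartile scaling (0.0309) and library totals (0.0173). With a library left out it ranged from -0.0369 to 0.0122, Gstp1 from -0.0216 to 0.0306 and Gsta4 from -0.0161 to 0.184. Without HdR 4 and WT 4 together, Gstp1 was at -0.0089 and Gsta4 at -0.0045. Fth1 was called lower without HdR 2 (limma adjusted p = 0.0186). Replicate numbers showed no sign of pairing: the correlations of same-numbered HdR and WT deviations were 0.03, -0.07, -0.22 and 0.02. HdR 2 correlated best with WT 3 (0.25). Whether same-numbered libraries were prepared together cannot be told from these correlations. With the replicate number as a block, 11 members were higher and 14 lower, the further pathway genes had 9 higher and 31 lower, and over all genes 2256 were higher and 2502 lower. Where a cause of a change is not given, it was not tested. Low coverage limits Aldh3a1, Gstm1, Mgst2 and Mgst3 among the members and Gpx7, Gstm6, Gsta3 and Nfe2l3 among the further genes, whose differences shrink as the pseudocount grows.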
